A study of Homo sapiens with 6 samples.

Results

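The kinesin family was taken as the 37 genes whose symbol starts with KIF and a digit, of 16327 genes summed from the deposited counts. It was followed in HN12, a cell line from a human squamous carcinoma of the head and neck. The 3 libraries (replicates 1 to 3) came from cells given CPI-613 for 24 h and the other 3 from Control cells given the solvent DMSO for 24 h, all from this 1 line in culture medium with serum. CPI-613, also called devimistat, resembles lipoate and targets dehydrogenase complexes of mitochondria, and its dose is not given in the sources used here. Nothing in the labels says whether replicates were grown separately, so errors and p-values cover library-to-library spread that may be technical. Members were chosen by symbol, but the family itself was selected on the measured KIF21B difference between CPI-613 and Control cells. Values of the family in this comparison are therefore a description. Whether a gene passed the test fitted over all genes is stated as a label and supports nothing further.

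Kinesins are motor proteins that use ATP to move along microtubules or to take microtubule ends apart. One class works on the spindle and the midzone of dividing cells, and its genes are switched on in G2 and mitosis. A second class carries vesicles, organelles and protein complexes, and several of its members are known mainly from neurons. Members were sorted by textbook role into 12 mitotic kinesins, 15 transport kinesins and 10 others with ciliary, signalling, mixed or unsettled roles. A further 3 kinesins of these classes, KIF2B, KIF19 and KIF28P, were not analysed here.

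The promoters of the mitotic class shared sequence features that the symbol rule did not use. RefSeq windows (GRCh38.p14) from 250 bases before to 50 bases after the annotated start were matched for 32 of the 37 members, and KIF5A, KIF13B, KIF21B, KIF26B and KIF27 were not matched. The letters TTTGAA, the core of the CHR element through which the MuvB complexes act on cell cycle genes, were found on either strand in 9 of 12 mitotic windows, 1 of 12 transport windows (KIF5B) and 0 of 8 other windows, against 12.4% of 22199 windows of protein-coding genes. The letters CCAAT, the NF-Y box, stood in 10 of 12 mitotic, 3 of 12 transport and 3 of 8 other windows, against 34.7% of all. KIF4A and KIF4B hold both motifs and are counted as separate mitotic windows. KIF4B is a copy of KIF4A (95.3% identity over 4359 aligned transcript bases), so they are not independent. The ATF4 composite site, searched as TGATGNAAN on both strands, was in 0 of 32 kinesin windows, against 2.69% of all. No matches of different motifs overlapped in the kinesin windows. The mitotic windows of KIF11, KIF23 and KIF4A are shown for the pairing of both motifs before the start, and that of the transport gene KIF3C for comparison, since it holds none of the 3. That arrangement does not hold for the whole class. In KIF14, KIF18B, KIF4B and KIF20B the TTTGAA matches begin after the start. KIF20A and KIF22 hold CCAAT alone, KIF15 TTTGAA alone and KIF2C neither. Capitals mark TTTGAA or CCAAT on either strand, so TTCAAA and ATTGG are the reverse-strand forms.
KIF11, chr10:92592880-92593179, plus strand: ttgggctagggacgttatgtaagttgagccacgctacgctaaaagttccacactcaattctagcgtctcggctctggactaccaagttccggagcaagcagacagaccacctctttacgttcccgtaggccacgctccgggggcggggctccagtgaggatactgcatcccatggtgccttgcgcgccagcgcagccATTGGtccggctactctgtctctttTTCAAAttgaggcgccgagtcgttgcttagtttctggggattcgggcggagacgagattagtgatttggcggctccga
KIF23, chr15:69414099-69414398, plus strand: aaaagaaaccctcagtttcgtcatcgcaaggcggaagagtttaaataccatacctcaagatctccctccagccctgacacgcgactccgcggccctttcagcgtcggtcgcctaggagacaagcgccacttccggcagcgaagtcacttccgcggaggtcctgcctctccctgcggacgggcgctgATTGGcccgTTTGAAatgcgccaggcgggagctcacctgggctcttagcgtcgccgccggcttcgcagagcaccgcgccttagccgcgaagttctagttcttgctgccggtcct
KIF4A, chrX:70289854-70290153, plus strand: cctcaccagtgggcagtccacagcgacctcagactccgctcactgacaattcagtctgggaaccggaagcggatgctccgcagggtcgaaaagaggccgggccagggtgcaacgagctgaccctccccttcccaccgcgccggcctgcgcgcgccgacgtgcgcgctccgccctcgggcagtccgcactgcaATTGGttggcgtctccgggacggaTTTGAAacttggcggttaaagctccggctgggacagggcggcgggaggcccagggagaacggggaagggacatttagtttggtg
KIF3C, chr2:25982448-25982747, minus strand: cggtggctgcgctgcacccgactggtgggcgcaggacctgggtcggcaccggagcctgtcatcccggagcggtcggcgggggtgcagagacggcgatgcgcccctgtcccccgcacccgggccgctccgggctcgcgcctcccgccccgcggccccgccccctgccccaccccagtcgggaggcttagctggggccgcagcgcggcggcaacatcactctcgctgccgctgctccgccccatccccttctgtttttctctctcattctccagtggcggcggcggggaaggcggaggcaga
In KIF23 the reverse CCAAT match begins 64 bases and the TTTGAA match 55 bases before the start. In KIF4A they begin 58 and 34 bases before it. In KIF11 they begin 53 and 28 bases before it, with both on the reverse strand. Such a match is a description of the letters and not a measured binding site.

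The libraries held 13458530, 13896449 and 15486513 estimated counts in CPI-613 replicates 1 to 3 and 11531942, 12508570 and 12171790 in Control replicates 1 to 3. Squamous identity was visible in all of them, with 8 of 8 epithelial markers tested and none called on the counts, and with KRT14 at 388 to 983 FPKM in CPI-613 cells and 828 to 1195 FPKM in Control cells (FPKM is a count scaled by transcript length and library size). The keratin KRT5 lay lower in every CPI-613 library, at 239 to 647 FPKM in CPI-613 cells and 1039 to 1382 FPKM in Control cells (log2 fold change -1.21, SE 0.42), and was called lower after an adjustment for GC content and length described further on (-1.46, SE 0.27; edgeR, Benjamini-Hochberg adjusted p = 0.0138). Of markers of other cell types, the leukocyte list (3 of 5 in the table) summed to 28.2 to 44 FPKM in CPI-613 cells and 30.8 to 45.5 FPKM in Control cells, while its defining PTPRC stayed at or below 0.07 FPKM in every library. Most of that sum was CD68, at 27.35 to 43.65 FPKM in CPI-613 cells and 29.71 to 44.87 FPKM in Control cells. The fibroblast list (2 of 5) summed to 5.71 to 6.09 FPKM in CPI-613 cells and 6.47 to 7.94 FPKM in Control cells, and the endothelial list (4 of 4) to 0.03 to 0.08 FPKM in CPI-613 cells and 0.26 to 0.63 FPKM in Control cells. The ciliated list (3 of 5) summed to 0.74 to 1.1 FPKM in CPI-613 cells and 1.1 to 1.79 FPKM in Control cells. Neuron markers (6 of 7), relevant because several kinesins are neuronal, summed to 1.05 to 2.76 FPKM in CPI-613 cells and 1.36 to 3.02 FPKM in Control cells. Of these, SNAP25, RBFOX3 and NEFL stayed at or below 0.12 FPKM in every library. SYT1, NEFM and SYP were higher and were tested. Their maxima were 1.86, 0.53 and 0.47 FPKM in CPI-613 cells and 1.37, 1.21 and 0.52 FPKM in Control cells. None of the markers tested in the lists of other cell types was called on the counts or after adjustment, and their part in the kinesin values was not tested. CPI-613 replicates 1 and 3 stood far apart from each other, which touches many kinesins and is described with them.

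KIF21B was the member that differed most. It encodes a plus-end directed motor of the kinesin-4 family that also restrains microtubule growth and is known from neurons and T cells. The gene (gene ID 23046) lies on chromosome 1 at 200969390 to 201023714 (GRCh38). Its level was 8.63, 8.34 and 9.23 FPKM in CPI-613 replicates 1 to 3 and 0.98, 0.97 and 0.88 FPKM in Control replicates 1 to 3. All CPI-613 libraries lay far above all Control libraries, and within each group the libraries lay close together, at 8.73 ± 0.454 FPKM with CPI-613 and 0.943 ± 0.0551 FPKM in Control (SD, n = 3 each). The values rest on 1033, 1030 and 1288 counts in CPI-613 and 103, 110 and 97 counts in Control libraries. The fitted log2 fold change of CPI-613 over Control was 3.39 (SE 0.23), a 10.5-fold difference that ranked 16 among the 12671 genes tested. Over 23 fits on the counts its log2 fold change lay between 3.19 and 3.49. These fits varied scaling, filter, tool and libraries left out, and some were adjusted for GC content and length. By mean FPKM KIF21B ranked 12 of the 37 members in CPI-613 cells, close to KIF1B and KIF3B, and 25 of 37 in Control cells.

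The KIF21B counts are sums over 3 annotated transcripts, and the authors' split between them differed from library to library. In Control replicate 1 all 103 counts were placed on one transcript, and in Control replicates 2 and 3 all 110 and 97 counts on another. In CPI-613 replicates 1 to 3 the first of these held 716.8, 478.3 and 898.3 estimated counts and the second 297.4, 531.7 and 380.8. Only the gene sum was used for that reason. Genes beside KIF21B were also examined. Within 500000 bases on either side 10 protein-coding genes were tested, a window chosen after the KIF21B values were seen. None of the 10 was called, where 1.94% of all genes were called higher and 1.24% lower. Their log2 fold changes ran from -1.33 (SE 0.53) for PKP1, a desmosomal plakophilin, to 0.75 (SE 0.45) for IGFN1. One of them is itself a kinesin, the mitotic KIF14, with a log2 fold change of -0.03 (SE 0.68).

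**Figure D1:**
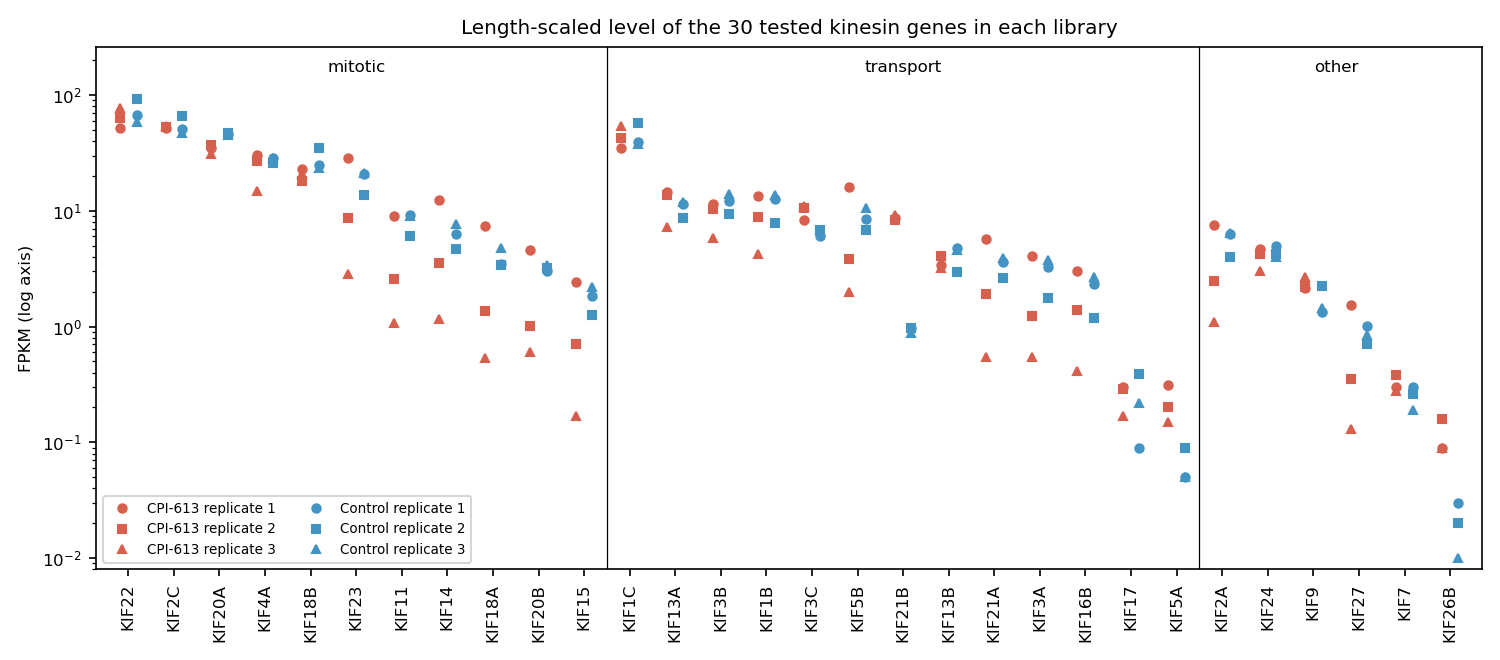
FPKM (log axis) of each tested kinesin gene in every library, CPI-613 in red left of Control in blue, sorted by class and by mean level. KIF21B is at 8.34 to 9.23 FPKM in CPI-613 cells and 0.88 to 0.98 FPKM in Control cells, while in genes such as KIF23 and KIF15 the 3 CPI-613 libraries spread over at least 10-fold.

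Of the 37 members 30 passed the filter on low counts and entered the fit over all genes with edgeR's quasi-likelihood test. At a Benjamini-Hochberg adjusted p under 0.05, the rule for a call here, 2 kinesins were called higher with CPI-613, KIF21B and KIF26B, none was called lower and 28 were not called. Over all 12671 genes 1.94% were called higher and 1.24% lower. Unadjusted p-values under 0.05 were found for 5 kinesins, all higher, against 8.45% of all genes higher and 5.93% lower. Of the 5, KIF5A and KIF26B passed the count filter only through the CPI-613 libraries. DESeq2 called 3 kinesins higher and none lower (3.87% and 3.17% of all genes), and limma-voom 2 higher and none lower (1.95% and 1.32% of all genes). Without Control replicate 1 or Control replicate 3 no gene of the whole table was called, so no kinesin was either (edgeR; 1064 and 1118 genes at an unadjusted p under 0.05). The median log2 fold change was -0.14 over the 29 tested kinesins other than KIF21B and 0.02 over all genes. In 6 kinesins every CPI-613 library lay above every Control library and in 1 every CPI-613 library lay below, on CPM (counts scaled by normalised library size), where 11.8% and 9.17% of all tested genes did so.

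**Figure D2:**
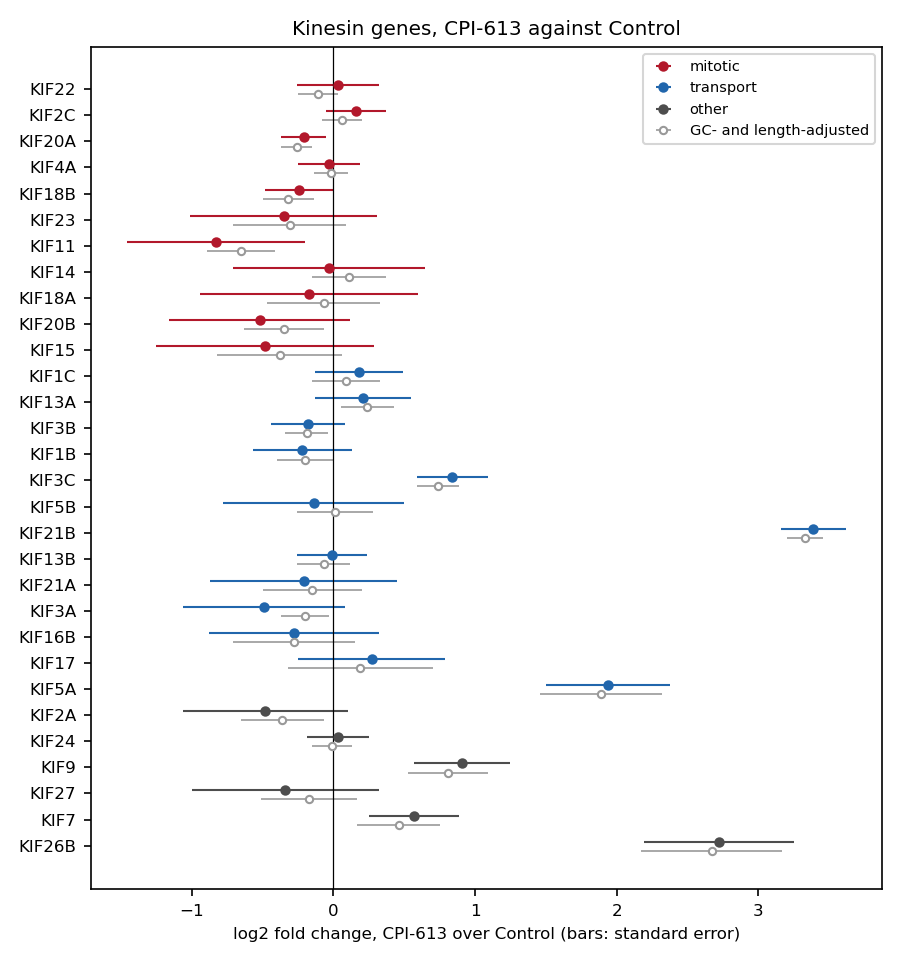
Log2 fold change of CPI-613 over Control for each tested kinesin, with its standard error; filled points are the fit on the counts and open grey points the fit after GC- and length-adjustment. KIF21B (3.39) and KIF26B (2.72) lie far to the right, and the mitotic kinesins lie between -0.83 and 0.16.

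Mitotic kinesins were among the most abundant members, and none was called. Of 11 tested, none was called by edgeR, by DESeq2 or by limma-voom, and none had an unadjusted p under 0.05 in edgeR. With 1.94% of all genes called higher and 1.24% lower by edgeR, a lack of calls among 11 genes does not set the class apart. Their log2 fold changes ran from -0.83 to 0.16, with 9 of 11 below 0 and a median of -0.21. With totals alone as the scale the median of all genes was -0.17, that of the mitotic kinesins was -0.41, and all 11 lay below 0. Summed over the 12 genes, their level was 257, 216 and 204 FPKM in CPI-613 replicates 1 to 3 and 262, 298 and 251 FPKM in Control replicates 1 to 3. The summed ranges overlap, since CPI-613 replicate 1 lies above Control replicate 3. In bulk RNA fewer cells in mitosis and less RNA per mitotic cell cannot be told apart.

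The highest kinesin in both groups was KIF22, the chromokinesin Kid that pushes chromosome arms outward. It measured 51.99, 63.11 and 76.63 FPKM in CPI-613 cells and 66.87, 92.29 and 58.8 FPKM in Control cells, which overlap (log2 fold change 0.03, SE 0.29). KIF2C, the microtubule depolymerase MCAK that corrects chromosome attachments, measured 51.6, 53.25 and 53.52 FPKM in CPI-613 cells and 51.18, 65.38 and 46.89 FPKM in Control cells. On FPKM its CPI-613 libraries all lay inside the Control range, while on CPM its CPI-613 replicate 3 (168) lay just above the Control maximum (166). Its log2 fold change was 0.16 (SE 0.21). KIF20A, the motor MKLP2 that brings the chromosomal passenger complex to the midzone, measured 34.94, 37.3 and 31.22 FPKM in CPI-613 cells and 45.81, 46.8 and 44.96 FPKM in Control cells. It was the 1 mitotic kinesin whose groups did not overlap on CPM, all CPI-613 libraries being lower, with a log2 fold change of -0.21 (SE 0.16) that was not called. KIF4A, a chromokinesin of the midzone, measured 30.28, 26.66 and 14.93 FPKM in CPI-613 cells and 28.45, 25.87 and 28.41 FPKM in Control cells (log2 fold change -0.03, SE 0.22), and the groups overlapped. KIF18B, which shortens astral microtubules, measured 22.98, 18.03 and 20.76 FPKM in CPI-613 cells and 25.09, 35.03 and 23.23 FPKM in Control cells. Its groups did not overlap on FPKM but did on CPM (log2 fold change -0.24, SE 0.24).

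The 6 mitotic kinesins under 45% GC showed a wide spread between the CPI-613 libraries. KIF11 (Eg5), the motor that pushes spindle poles apart, measured 9.05, 2.58 and 1.08 FPKM in CPI-613 replicates 1 to 3 and 9.28, 6 and 9.08 FPKM in Control replicates 1 to 3. Its CPI-613 replicate 1 was level with Control replicates 1 and 3, and its CPI-613 replicates 2 and 3 lay below all Control libraries. KIF23 (MKLP1), a subunit of centralspindlin in cytokinesis, measured 28.7, 8.73 and 2.87 FPKM in CPI-613 and 20.73, 13.81 and 21.02 FPKM in Control libraries. KIF15, a motor that backs up KIF11, measured 2.41, 0.7 and 0.17 FPKM in CPI-613 and 1.84, 1.26 and 2.19 FPKM in Control libraries. In both genes CPI-613 replicate 1 was the highest of all 6 libraries and CPI-613 replicate 3 the lowest. KIF14, a midbody motor, KIF18A, which damps chromosome movement, and KIF20B, a cytokinesis motor, had the same highest and lowest library. In 7 of the 11 tested mitotic kinesins CPI-613 replicate 1 lay above and CPI-613 replicate 3 below all Control libraries on CPM, as did 22.1% of all genes.

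**Figure D3:**
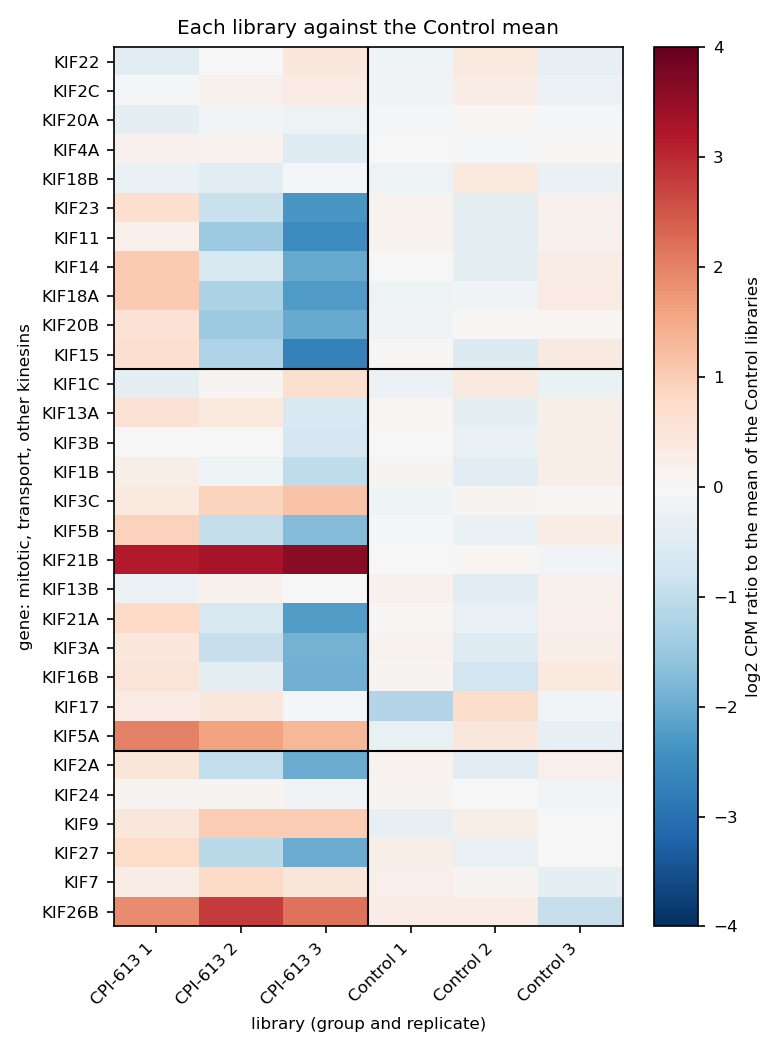
Log2 ratio of each library's CPM to the mean of the Control libraries for the 30 tested kinesins (rows, by class), with the CPI-613 libraries in the left columns. KIF21B is high in all CPI-613 libraries, while KIF11, KIF14, KIF15, KIF18A, KIF20B and KIF23 are above the Control mean in CPI-613 replicate 1 and below it in CPI-613 replicates 2 and 3.

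This spread moved with the GC content of the transcripts. Over the 30 tested kinesins the log2 CPM ratio of CPI-613 replicate 3 to CPI-613 replicate 1 followed the GC content of the longest coding transcript with Pearson's r = 0.86 and Spearman's rho = 0.85, where over 12600 genes r was 0.76 and rho 0.79. These are correlations across genes that share the same 2 libraries, so genes are not independent replicates. In the 11 kinesins under 45% GC the ratio had a median of -2.72 (-3.37 to -2.31), and in the 19 others of 0.18 (-2.44 to 1.00). Over all genes these medians were -1.52 and 0.59. The 45% limit was chosen after the values were seen. KIF21B has 59.7% GC and a ratio of 0.44. KIF11, KIF14, KIF15, KIF18A, KIF20B and KIF23 have 34.2% to 42.3% GC, while the other 5 tested mitotic kinesins have 46.4% to 58.9%. What part GC content has in the CPI-613 against Control values was not tested beyond the adjusted fit.

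**Figure D4:**
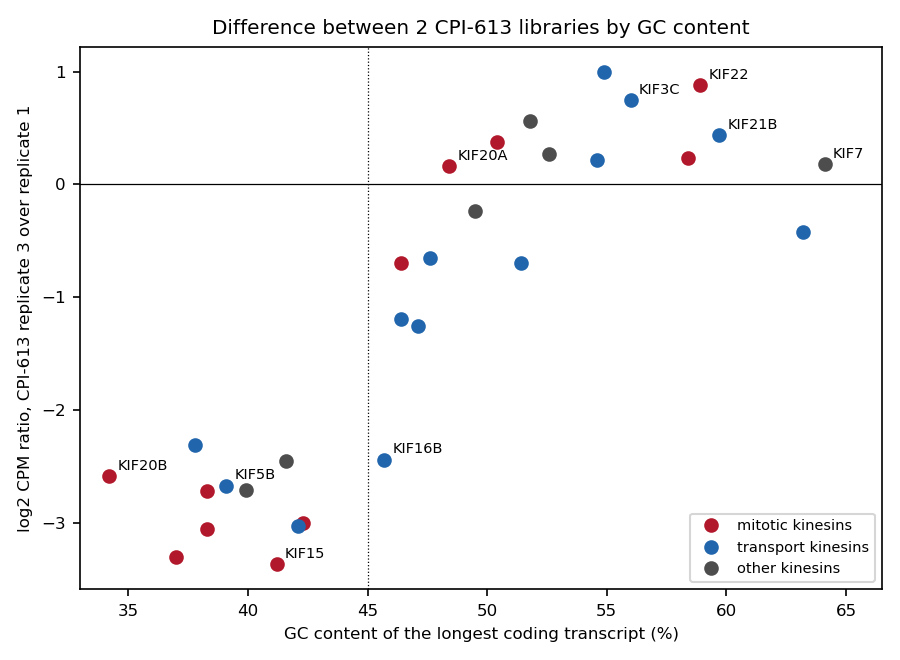
Log2 CPM ratio of CPI-613 replicate 3 to CPI-613 replicate 1 against the GC content (%) of the longest coding transcript, 1 point per tested kinesin, coloured by class; the dotted line stands at 45%. All 11 kinesins under 45% lie at or below -2.31, and KIF21B lies at 0.44 with 59.7% GC.

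The GC- and length-adjusted fit takes out the trend of each library on both properties over all genes. Under 45% GC the median ratio of CPI-613 replicate 3 to 1 was -2.72 in kinesins and -1.52 in all genes. Part of the kinesins' spread can therefore remain. In this fit the median of the mitotic kinesins was -0.26. None of the 11 was called there. An unadjusted p under 0.05 was found for 2, both lower, where 1394 of all 12671 genes were lower at that limit. KIF11 then had a log2 fold change of -0.65 (SE 0.24) and KIF14 of 0.11 (SE 0.26), and both were uncalled. In the same fit 4 kinesins were called higher, KIF21B, KIF26B, KIF5A and KIF3C, and none lower, where 6.66% of all genes were called higher and 5% lower. Of these, KIF21B is the gene the family was selected on. KIF26B and KIF5A passed the count filter only through the CPI-613 libraries, so the count of calls supports nothing further. Leaving out CPI-613 replicate 1 gave the mitotic kinesins a median of -1.16 on the counts and -0.46 after adjustment. Without that library 3 mitotic kinesins were called lower on the counts, KIF11 at -1.89, KIF18A at -1.70 and KIF20B at -1.72 (3.66% of all genes were called higher and 3.43% lower). After adjustment without it, 3 were also called lower, KIF11, KIF15 and KIF23, between -1.17 and -0.95 (11.7% of all genes higher and 9.11% lower). Leaving out CPI-613 replicate 3 instead gave medians of 0.04 and -0.04 with no mitotic call (2.75% of all genes higher and 2.37% lower on the counts, 6.41% and 4.76% after adjustment). The direction on the counts thus rested on which CPI-613 library was kept.

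Partners of the mitotic motors on the spindle and midzone were likewise not called. Of 20 tested, none was called by edgeR, DESeq2 or limma-voom or had an unadjusted p under 0.05 in edgeR, and their median log2 fold change was -0.12. Over all genes edgeR called 1.94% higher and 1.24% lower, so a lack of calls among 20 genes does not set them apart. TPX2, which targets KIF11 and Aurora A to the spindle, measured 79.89, 84.1 and 54.32 FPKM in CPI-613 and 81.53, 88.96 and 85.88 FPKM in Control libraries (log2 fold change -0.05, SE 0.19). NUMA1, which anchors dynein at spindle poles, was the most abundant of this list by CPM (log2 fold change 0.20, SE 0.21). Among 18 proliferation markers E2F2, a transcription factor of S phase genes, fell with CPI-613 and the other 17 were not called. DESeq2 called 3 of the list lower, against 3.17% of all genes. The estimates of 15 of the 18 lay below 0 (median -0.33 on the log2 scale). An unadjusted p under 0.05 was found for 4, all lower (5.93% of all genes). In E2F2, PCNA, MCM6 and CCND1 every CPI-613 library lay below every Control library on CPM, as did 9.17% of all tested genes. In the GC- and length-adjusted fit 3 were called lower (5% of all genes), E2F2 at -2.17 (SE 0.25), E2F1, its relative, at -0.96 (SE 0.17) and PCNA, the replication clamp, at -0.61 (SE 0.15). E2F2 averaged 3.04 ± 1.15 CPM with CPI-613 and 12.8 ± 2.56 CPM in Control (SD, n = 3 each; log2 fold change -2.07, SE 0.35; edgeR quasi-likelihood test, Benjamini-Hochberg adjusted p = 0.0273). Across alternatives on counts, adjusted fits included, that p ran between 2.69e-06 and 0.16 (E2F2). Among unadjusted fits that leave out 1 library, that call ended with any 1 of the Control libraries or CPI-613 replicate 2 left out. In the GC- and length-adjusted fits that leave out 1 library E2F2 was called each time. MKI67, the classic marker of cycling cells, measured 32.65, 11.52 and 6.02 FPKM in CPI-613 and 38.78, 24.84 and 37 FPKM in Control libraries, with CPI-613 replicate 3 again lowest but no CPI-613 library above the Control maximum (log2 fold change -0.87, SE 0.52, not called). CENPE, the kinetochore kinesin outside the symbol rule, has 35.3% GC and had the library order of KIF23, at 3.37, 0.98 and 0.45 FPKM in CPI-613 and 2.54, 2.24 and 2.82 FPKM in Control libraries.

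Transport kinesins apart from KIF21B ranged from abundant to near 0. Of 13 tested, KIF21B was called higher and 12 were not called, with 6 log2 fold changes above 0, 7 below and a median of -0.01. Without KIF21B the 14 others summed to 116, 99.1 and 90.1 FPKM in CPI-613 replicates 1 to 3 and 105, 106 and 110 FPKM in Control replicates 1 to 3, which overlap. KIF1C, a kinesin-3 motor for vesicles, was the most abundant, at 34.55, 42.63 and 54.5 FPKM in CPI-613 and 39.59, 57.05 and 37.87 FPKM in Control libraries (log2 fold change 0.18, SE 0.31). KIF13A, a kinesin-3 motor of endosomes, measured 14.62, 13.56 and 7.31 FPKM in CPI-613 and 11.5, 8.68 and 11.89 FPKM in Control libraries (log2 fold change 0.21, SE 0.34). Both genes overlapped between the groups. KIF3B, a subunit of the kinesin-2 motor of intraflagellar transport, measured 11.46, 10.44 and 5.82 FPKM in CPI-613 and 12.13, 9.41 and 14 FPKM in Control libraries (log2 fold change -0.18, SE 0.26). KIF1B, which carries mitochondria and synaptic vesicle precursors, measured 13.49, 8.82 and 4.27 FPKM in CPI-613 and 12.66, 7.82 and 13.73 FPKM in Control libraries (log2 fold change -0.22, SE 0.35). KIF3B and KIF1B overlapped as well, and each was lowest in CPI-613 replicate 3.

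KIF3C, the kinesin-2 subunit that pairs with KIF3A, was higher in all CPI-613 libraries. It measured 8.32, 10.64 and 11.11 FPKM in CPI-613 and 6, 6.81 and 6.76 FPKM in Control libraries. The groups did not overlap. The log2 fold change was 0.84 (SE 0.25) in edgeR on the counts of all 6 libraries, where it was not called, and 0.74 (SE 0.15) in the GC- and length-adjusted fit, where it was. On the counts it was called by DESeq2 (0.81) and without CPI-613 replicate 1 (1.03). The adjusted call was lost without Control replicate 1 (0.67), without Control replicate 3 (0.77) or without CPI-613 replicate 2 (0.69). Its partner KIF3A (37.8% GC) measured 4.05, 1.24 and 0.55 FPKM in CPI-613 and 3.27, 1.77 and 3.75 FPKM in Control libraries, with a log2 fold change of -0.49 (SE 0.57). The shared accessory subunit KIFAP3 was not called, at -0.07 (SE 0.39).

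The kinesin-1 heavy chains, which work with light chains on many cargoes, differed in level. KIF5B, the form made in most tissues, measured 16.02, 3.85 and 2 FPKM in CPI-613 and 8.46, 6.83 and 10.61 FPKM in Control libraries, again highest in CPI-613 replicate 1 and lowest in CPI-613 replicate 3 (39.1% GC). KIF5A, the neuronal form, had 22, 15 and 12 counts in CPI-613 and 3, 6 and 3 counts in Control libraries. All CPI-613 libraries were higher, and the log2 fold change was 1.94 (SE 0.44), uncalled on the counts. KIF5A stayed under 10 counts in every Control library and passed the filter only through the CPI-613 libraries, so its difference was partly fixed by the filter. KIF5C, a further neuronal form, had 1 to 11 counts in CPI-613 and 2 to 5 in Control libraries and was not tested. The light chain KLC2, which links kinesin-1 to cargo, had a log2 fold change of 0.58 (SE 0.27) and was not called. KLC2 and KIFC1, a minus-end directed spindle motor at 0.26 (SE 0.24), were the most abundant by CPM among light chains and kinesins outside the symbol rule.

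KIF21A, the closest relative of KIF21B, was not called. This kinesin-4 motor at the cell cortex measured 5.76, 1.91 and 0.55 FPKM in CPI-613 and 3.62, 2.65 and 3.92 FPKM in Control libraries (log2 fold change -0.21, SE 0.66). The groups overlapped, and with 42.1% GC it was highest in CPI-613 replicate 1 and lowest in CPI-613 replicate 3. By length-scaled level KIF21B was the higher of the pair in every CPI-613 library and the lower in every Control library. KANK1 and KANK2, cortical proteins that recruit KIF21A, and TRIM3, a ubiquitin ligase known to act on KIF21B in neurons of rodents, were not called (log2 fold changes 0.30, 0.22 and 0.29). The remaining tested transport members, KIF13B, KIF16B and KIF17, had log2 fold changes from -0.28 to 0.27, and their groups overlapped.

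Among the other kinesins KIF26B was called higher. KIF26B encodes an unconventional kinesin known from kidney development and Wnt5a signalling. It had 16, 29 and 18 counts in CPI-613 and 4, 4 and 1 counts in Control libraries. The groups did not overlap and the log2 fold change was 2.72 (SE 0.53), but its level reached only 0.16 FPKM, and it too passed the filter only through the CPI-613 libraries. It was called in 13 of 23 fits on the counts, against 21 of 23 for KIF21B, with GC- and length-adjusted fits included in the 23. KIF9, a motor of cilia and sperm tails, had 18, 25 and 25 counts in CPI-613 and 9, 14 and 12 counts in Control libraries (log2 fold change 0.91, SE 0.34). KIF7, the ciliary Hedgehog regulator, had 18, 23 and 19 counts in CPI-613 and 15, 14 and 10 in Control libraries (log2 fold change 0.57, SE 0.32). Neither KIF9 nor KIF7 was called, and in both every CPI-613 library was higher on CPM while the FPKM ranges overlapped.

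KIF2A, a depolymerase of spindle poles and neurons, and KIF24, which acts at centrioles, were the most abundant of the other class. KIF2A measured 7.51, 2.46 and 1.09 FPKM in CPI-613 and 6.28, 3.97 and 6.49 FPKM in Control libraries (log2 fold change -0.48, SE 0.58). KIF24 measured 4.7, 4.21 and 3.02 FPKM in CPI-613 and 4.94, 4.26 and 3.99 FPKM in Control libraries (log2 fold change 0.03, SE 0.22). Both overlapped between the groups. KIF27, a ciliary relative of KIF7, had the same order of CPI-613 libraries as KIF2A and a log2 fold change of -0.34 (SE 0.66).

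The remaining 7 members stayed below the count filter and were not tested. KIF1A, the neuronal motor for synaptic vesicle precursors, had 2 to 4 counts in CPI-613 and 1 to 3 in Control libraries. KIF6 had 0 to 1 counts in CPI-613 and 1 to 2 in Control libraries. KIF12 had 4 to 9 counts in CPI-613 and 4 to 11 in Control libraries, and KIF26A had 5 to 10 in CPI-613 and 3 to 6 in Control libraries. These 4 genes were near the detection limit in both groups. KIF25 had 0, 1 and 2 counts in CPI-613 and 18, 7 and 2 counts in Control libraries, which meet at 2 counts. KIF4B had 6 to 16 counts in CPI-613 and 5 to 11 in Control libraries. KIF4B is a copy of KIF4A with 95.3% identity over 4359 aligned transcript bases, so its few counts may include reads of KIF4A, which had 960 to 1691 counts, and are uncertain.

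Genes of the same transport machinery were mostly uncalled. Of 29 tested genes of cytoplasmic dynein and dynactin, the motor that runs the opposite way, none was called by edgeR or limma-voom. Over all genes edgeR called 1.94% higher and 1.24% lower, and limma-voom 1.95% and 1.32%. An unadjusted p under 0.05 was found for 1, higher, against 8.45% of all genes. BICDL1, a dynein adaptor, was the 1 called by DESeq2, at 18 ± 2.12 CPM with CPI-613 and 8.63 ± 1.03 CPM in Control (SD, n = 3 each; edgeR log2 fold change 1.06, SE 0.24, Benjamini-Hochberg adjusted p = 0.07). Over all genes DESeq2 called 3.87% higher. In the GC- and length-adjusted fit BICDL1 was called higher (0.95, SE 0.17; edgeR, adjusted p = 0.0105). There 1 of the 29 was called higher, against 6.66% of all genes, so these calls do not set the list apart. The most abundant by CPM were DYNC1H1, the dynein heavy chain, at 0.19 (SE 0.17), and DCTN1, the large dynactin subunit, at 0.30 (SE 0.24). Of 20 tested cargo adaptors and regulators and of 10 light chains, accessory subunits and kinesins outside the symbol rule, none was called by any of the 3 tools. Of these, 1 adaptor, HAP1, had an unadjusted p under 0.05 (log2 fold change -0.79, SE 0.28), against 5.93% of all genes lower. HAP1 was called lower in the GC- and length-adjusted fit (-0.88, SE 0.22; edgeR, Benjamini-Hochberg adjusted p = 0.0436). It was the 1 of 20 adaptors called there, where 5% of all genes were called lower, so the call does not set the list apart. CLSTN1, a cargo adaptor of kinesin-1, and MAP7D1, a microtubule protein that recruits kinesin-1, were the most abundant adaptors (log2 fold changes 0.24, SE 0.23 and 0.35, SE 0.32).

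Among 22 tested tubulins, microtubule-associated proteins and tubulin modifiers TUBB2A, a beta-tubulin, rose with CPI-613. The other 21 were not called on the counts, while 7 of the 22 were called higher and none lower in the GC- and length-adjusted fit, where 6.66% of all genes were higher. TUBB2A measured 21.43, 28.21 and 30.6 FPKM in CPI-613 and 8.34, 10.55 and 9.9 FPKM in Control libraries, with no overlap. Its log2 fold change was 1.70 (SE 0.29; edgeR quasi-likelihood test, Benjamini-Hochberg adjusted p = 0.0283). For TUBB2A the alternatives on counts, GC- and length-adjusted fits included, gave adjusted p-values between 4.28e-06 and 0.189. Among unadjusted fits that leave out 1 library, the TUBB2A call ended with any 1 of the Control libraries or CPI-613 replicate 2 left out. In the GC- and length-adjusted fits that leave out 1 library TUBB2A was called each time. At an unadjusted p under 0.05, 7 of the 22 were higher and none lower, against 8.45% and 5.93% of all genes. DESeq2 called 5 higher and limma-voom 1, against 3.87% and 1.95% of all genes. MAP1B, a neuronal microtubule-associated protein with 44.9% GC, measured 9.37, 2.94 and 1.17 FPKM in CPI-613 and 0.63, 0.39 and 0.55 FPKM in Control libraries. All CPI-613 libraries of MAP1B were higher, but the gene was not called on the counts (log2 fold change 3.23, SE 0.68; edgeR quasi-likelihood test, Benjamini-Hochberg adjusted p = 0.056). In the GC- and length-adjusted fit MAP1B was called higher (3.21, SE 0.45; adjusted p = 0.00427 by the same test). TUBB2B and TUBA1A, tubulins enriched in the developing brain, had log2 fold changes of 1.93 (SE 0.42) and 1.54 (SE 0.36) and were not called on the counts. In the GC- and length-adjusted fit TUBB2B was called higher at 1.71 (SE 0.23; edgeR, Benjamini-Hochberg adjusted p = 0.00383), and so was TUBA1A at 1.35 (SE 0.26; adjusted p = 0.0145). The remaining 3 called there were TUBB3 at 0.77 (SE 0.15), MAP1S at 0.53 (SE 0.14) and MAP4 at 0.55 (SE 0.14). Close tubulin paralogs share sequence, so their counts depend on how the authors' counting divided shared reads.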

How the data were processed

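Strand setting and annotation release: not given in the sources used here. Per the labels' protocols, libraries were made from total RNA with a NEBNext Ultra II kit and sequenced by DNBSEQ. Build hg38 and, as tools without roles, DESeq2, edgeR 3.16.5, HTSeq, STAR 2.5 and CASAVA appear in the submitters' processing notes. The authors deposited estimated counts for 79031 RefSeq transcripts, and a gene table whose unit is not named. That table was taken as FPKM computed by the authors. Over 1179 single-transcript genes the counts per unit of the table followed the library total within 0.51% at the median. That check covers library size and not length. As an example for length, KIF20A (3201 bases) had 1343 counts and 34.94 in CPI-613 replicate 1. KIF5B (5877 bases) had 1211 counts and 16.02 there. In 27 transcripts, none of a kinesin, a date stands in place of a number in CPI-613 replicate 1, and they were left out.

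Counts were summed per gene, rounded, filtered with filterByExpr (minimum count 10, total 15), scaled by TMM, and CPI-613 was set against Control by the quasi-likelihood test of edgeR 4.0.16, adjusted over 12671 genes by Benjamini-Hochberg at 0.05. The SE is the log2 fold change over the square root of F. CPM and the main log2 fold changes use TMM-scaled totals, while FPKM follows plain library totals, so differences between the groups can vary in size or sign between these scales. DESeq2 1.42.0 and limma 3.58.1 (limma-voom, and limma on log2 of FPKM plus 1 or 0.1, genes with a mean of at least 1 FPKM or all) were alternatives. The GC- and length-adjusted fit removes each library's spline trend (5 degrees of freedom each) on GC content and log length of the longest coding GENCODE 29 transcript, matched for 12600 tested genes. No library pair of a group agreed within counting noise (chi-square per degree of freedom at least 3.85). The script was tested on simulated counts.

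Members, roles and lists were chosen with earlier results of these data known. Named were KIF21B, kinesins called or at an unadjusted p under 0.05, the 3 most abundant per class, untested members, and of each other list the called genes or the 2 of highest CPM; others named, the kinesins under 45% GC, KIF4A, KIF18B, KIF1B, KIF7, KRT5, KRT14, CENPE, MKI67, E2F1, PCNA, MCM6, CCND1, TUBB3, MAP1S, MAP4, MAP1B, TUBB2B, TUBA1A, BICDL1, HAP1, KIF21A, KIF3A, KIF5B and the partners of named members among them, were chosen after their values were seen. Precision rests on 3 libraries per group.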

Additional observations from a re-analysis of the deposited data

How the results depend on the processing

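Over all genes 403 were called; 191 were called with the replicate number as a block, 893 by DESeq2, 1478 in the GC- and length-adjusted fit, 891 in that fit with the replicate block, and 70 at an adjusted p of 0.01. Leaving out 1 library gave 0 to 905 calls on the counts and 604 to 2664 calls in the adjusted fit, the second set being chosen after seeing the data (620, 1435 and 643 without Control replicates 1 to 3, 1436 without CPI-613 replicate 3). Of the kinesins 2 were called; 1 (KIF21B) was called with upper-quartile scaling, with library size only, with the replicate block, at an adjusted p of 0.01 and in the 3 limma fits on FPKM, and 4 in the GC- and length-adjusted fit. Leaving out 1 library gave 0 to 6 kinesin calls on the counts and 1 to 7 after adjustment; KIF21B was called in each of these except without Control replicate 1 or 3 on the counts. The median of the mitotic kinesins was lowest, -1.16, when CPI-613 replicate 1 was left out and highest, 0.04, when CPI-613 replicate 3 was, and that of the transport kinesins between -0.39 and 0.26, the spread between libraries being 0.85 and 0.42. Of 317 alternative values for 13 kinesins 297 moved by less than that gene's own spread between libraries, and no called one changed sign. A gene with a wide spread thus had a wide limit. The 13 were KIF21B, kinesins at an unadjusted p under 0.05 and the 3 most abundant per class. Of the kinesins under 45% GC only KIF2A was among them. Over the fits on the counts, GC- and length-adjusted ones included, KIF11 ran from -1.89 to -0.39, KIF14 from -1.16 to 0.44 and KIF5B from -1.30 to 0.28. Deviations of same-numbered CPI-613 and Control libraries correlated at 0.46, -0.10 and -0.61 across genes. CPI-613 replicate 3 and Control replicate 2 reached 0.68, and CPI-613 replicate 1 and Control replicate 3 reached 0.60. The spread tied to GC content enters these deviations, so whether the replicate numbers pair the samples cannot be told from them. With the replicate block and no GC and length adjustment E2F2 and TUBB2A were not called either. Counts under 10 in at least 1 library limit KIF5A, KIF9, KIF17, KIF26B and the 7 untested members.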
